A study of Mus musculus with 4 samples.

Results

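The miR-23/24/27 family was followed through 5 array probes, mmu-miR-23a, mmu-miR-23b, mmu-miR-24, mmu-miR-27a and mmu-miR-27b (written below without the mouse prefix), out of 700 mouse miRNA probes on the array. The members were taken by exact probe name, and the passenger (star) strands of the same hairpins were kept apart. All 5 were detected in every sample and all 5 entered the test.

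The cells were HC11, an established line of mouse mammary epithelium that the labels call stem cell-like, compared at 2 stages with 2 samples each. The proliferating samples were grown with 10% fetal bovine serum, insulin and epidermal growth factor and harvested at 48 h. The differentiated samples spent 48 h in 2% serum with the growth factor withdrawn, and then 72 h with the lactogenic hormones, 1 µg/mL ovine prolactin and 100 nM of the glucocorticoid dexamethasone. No transgene or mutation separates the groups in the labels, and both stages come from the same line, so each value describes 1 line in culture. Small RNA was labelled with Cy3 or Cy5 on 2-colour arrays. Proliferating 1 and differentiated 1 were paired on array 1, proliferating 2 and differentiated 2 on array 2, with the dyes swapped. The labels do not name the array, and this pairing rests on the shared number and the opposite dyes. Sample titles carry an unexplained repx3, and nothing in the labels says that samples of a stage were separate cultures. The p-values therefore measure only how far these samples spread, a spread that may be technical and that holds each probe's dye effect.

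A microRNA is cut from a hairpin precursor, and the strand loaded into Argonaute (the guide) represses mRNAs that pair with its seed, while the other strand (the passenger) is mostly degraded. The miR-23/27/24 hairpins are transcribed as a unit from each of a pair of duplicated genomic clusters. The guides of this family are known as regulators of metabolism, differentiation and the cell cycle. miR-23a and miR-23b repress the mitochondrial glutaminase and are themselves repressed by Myc in human cells. miR-27a and miR-27b hold back adipocyte differentiation and repress the lipid regulator PPARγ. miR-24 represses E2F2 and other cell-cycle genes in human cells. The comparison asked how the level of each guide differed between the stem-like and the lactogenic stage, and whether the a and b paralogs of each pair moved alike.

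The target sequences printed on the array are shown because the paralogs are almost the same molecule, which bears on every comparison between them. Bases 2 to 8, the seed, are in capitals, and the sequences run 5′ to 3′.
miR-23a: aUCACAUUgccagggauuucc
miR-23b: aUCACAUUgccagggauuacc
miR-27a: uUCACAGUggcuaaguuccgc
miR-27b: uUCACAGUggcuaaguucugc
miR-24: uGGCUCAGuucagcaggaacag
Counted from 1 at the 5′ end, the change from miR-23a to miR-23b is U19A and that from miR-27a to miR-27b is C19U. Both substitutions lie far from the seed, at base 19 of 21. The seed UCACAUU was held by miR-23a and miR-23b and by no other of the 700 targets at that place, and the same was true of UCACAGU for miR-27a and miR-27b. No other probe had the seed GGCUCAG of miR-24. The closest probe outside the family was 7 edits away from miR-23a, 8 from miR-23b and miR-27b, and 9 from miR-24 and miR-27a. Their spots also lay close together, 1 row apart in the same column for miR-23a and miR-23b and 2 rows apart for miR-27a and miR-27b. How much signal a probe takes from its paralog was not tested.

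The targets of miR-23a, miR-24, miR-27a and miR-27b matched RefSeq mature miRNAs of GRCm38.p6 exactly, and that of miR-23b was found inside its hairpin. On the plus strand of chromosome 8, Mir23a (84208518 to 84208592), Mir27a (84208672 to 84208758) and Mir24-2 (84208815 to 84208921) lie within 404 bases, and the gene table lists no longer gene that spans them. On the plus strand of chromosome 13, Mir23b (63300484 to 63300557), Mir27b (63300712 to 63300784) and Mir24-1 (63301208 to 63301275) lie within 792 bases, inside the span of Aopep, which encodes aminopeptidase O. Whether they fall in an intron was not examined. The mature guides occupy 84208563 to 84208583 for miR-23a, 84208727 to 84208747 for miR-27a, 63300529 to 63300549 for miR-23b and 63300760 to 63300780 for miR-27b. The miR-24 target occurs in both Mir24-2 (84208875 to 84208896) and Mir24-1 (63301251 to 63301272), so its signal can come from either cluster or both. The share of each was not tested.

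The hairpins of the miR-27 pair are printed to show how the loci differ outside the guide. Capitals mark the mature arms, first the passenger and then the guide.
Mir27a: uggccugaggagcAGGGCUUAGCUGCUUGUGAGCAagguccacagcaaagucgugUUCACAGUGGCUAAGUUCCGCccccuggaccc
Mir27b: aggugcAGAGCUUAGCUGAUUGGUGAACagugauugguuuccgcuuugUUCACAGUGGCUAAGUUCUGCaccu
The hairpins are 36 edits apart and their passenger arms 5, against 1 for their guides. The miR-27 passengers thus differ more from each other than the miR-27 guides do.

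All members gave bright spots. The lowest of their spots read 4097 intensity units (miR-27a in differentiated 1) and the highest 36156 (miR-23b in differentiated 2), where empty spots averaged between 39.1 and 287.8. All 5 spots of each member passed detection in each sample. The 5 spots of a member differed by 1.63% to 13.9% of their mean (coefficient of variation), the largest being miR-27a in differentiated 1. The brightest spot on any array read 62582, so member spots stayed below the brightest readings. Precision is limited by there being only 2 arrays. The level of a probe is not set against that of another probe, since probes differ in brightness for the same amount of RNA.

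Of the 5 guides, 4, miR-23a, miR-23b, miR-24 and miR-27a, read lower in both differentiated samples than in both proliferating ones, and miR-27b did not. None of the differences passed the test. Of the 172 probes tested, 30.2% were called at a limma adjusted p under 0.05 (13.4% lower and 16.9% higher), and 0 of the 5 members were. At an unadjusted p under 0.05, 2 members passed, miR-23a and miR-24, where 44.8% of tested probes passed in either direction and 22.1% as lower. Sample levels were lower without overlap for 4 of 5 members, beside 35.5% of tested probes, and higher without overlap for 0, beside 34.9%. The median log2 ratio of differentiated over proliferating was -0.71 for the members and 0.11 for all tested probes, relative to the miRNA probes of each array. When the ratios were centred on 15 spike control probes the members' median became 0.53 and that of all tested probes 1.35, so the sign of the members depends on the reference. Their distance from the tested median, which a common shift cannot change, was -0.83.

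**Figure D1:**
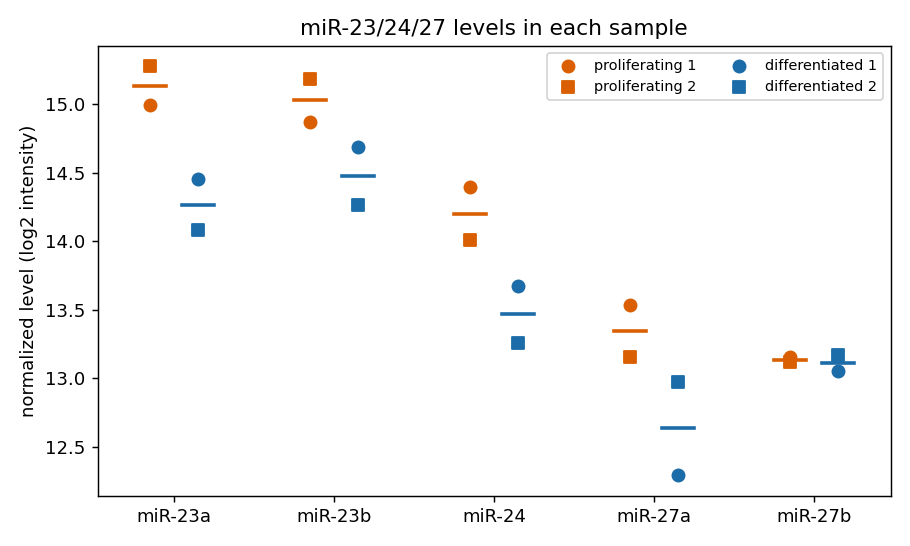
Normalized level (log2 intensity) of each guide in the 4 samples, with orange for proliferating, blue for differentiated, circles for replicate 1, squares for replicate 2 and a bar at each mean of 2. The groups are apart for miR-23a, miR-23b, miR-24 and miR-27a and overlap for miR-27b, with levels set relative to the miRNA probes (centred on spikes, the mean differences turn positive).

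miR-23a had log2 levels of 14.996 and 15.28 in proliferating 1 and 2, and of 14.45 and 14.08 in differentiated 1 and 2. Both differentiated samples lay below both proliferating ones. The log2 ratio was -0.54 on array 1 and -1.19 on array 2, a mean of -0.87 ± 0.46 (SD, n = 2 arrays; limma unadjusted p = 0.0409, adjusted p = 0.0988). This is a 1.83-fold lower level in differentiated cells, with a 95% interval of 1.05 to 3.19. The member with the largest mean difference thus failed the correction over all tested probes. In the authors' value table its processed intensity went from 34010 to 19319 on array 1 and from 41484 to 18820 on array 2. The limma test run on that table called miR-23a lower, with a mean log2 ratio of -0.98 and a limma adjusted p of 0.0166. All members had the same standard error of 0.37 in that fit, so a probe's own spread had no weight.

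miR-23b had log2 levels of 14.87 and 15.19 in the proliferating samples and of 14.69 and 14.26 in the differentiated samples. The groups did not overlap, but on array 1 the stages were close. The log2 ratio was -0.18 on array 1 and -0.93 on array 2, with a mean of -0.55 ± 0.52 (SD, n = 2 arrays; limma adjusted p = 0.211). The mean and its SD were of similar size. The authors' processed intensity for miR-23b went from 31899 to 22811 on array 1 and from 38568 to 21293 on array 2.

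miR-24, the guide encoded in both clusters, had log2 levels of 14.40 and 14.01 in the proliferating samples and of 13.68 and 13.26 in the differentiated samples. Replicate 2 read lower than replicate 1 at both stages, and the difference between stages was almost the same on both arrays. The log2 ratio was -0.72 on array 1 and -0.75 on array 2, with a mean of -0.73 ± 0.02 (SD, n = 2 arrays; limma unadjusted p = 0.0241, adjusted p = 0.0686). The fold was 1.66 lower in differentiated cells, with a 95% interval of 1.13 to 2.44. Its SD was below the median SD of 0.30 over the tested probes. A standard error of 0.18, drawn towards the other probes by the test, set the p-value.

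miR-27a had log2 levels of 13.53 and 13.16 in the proliferating samples and of 12.29 and 12.98 in the differentiated samples. Differentiated 1 was far below the rest, and differentiated 2 was just below proliferating 2. The log2 ratio was -1.24 on array 1 and -0.18 on array 2, with a mean of -0.71 ± 0.75 (SD, n = 2 arrays; limma adjusted p = 0.211). This was the largest spread of any member, and array 1 carried most of the mean. Without differentiated 1, in the fit that takes samples singly, the log2 ratio was -0.37, and without differentiated 2 it was -1.05. Differentiated 1 was also the sample in which the 5 spots of miR-27a differed most among themselves, with single spots from 4097 to 5731. Their coefficient of variation there was 13.9%, beside 12.5% for miR-27b and a median of 11.4% over the probes detected in that sample. The part of that sample in the result was not tested further.

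miR-27b had log2 levels of 13.15 and 13.12 in the proliferating samples and of 13.05 and 13.17 in the differentiated samples. The groups overlapped, and the 4 samples lay closer together than for any other member. The log2 ratio was -0.10 on array 1 and 0.05 on array 2, with a mean of -0.02 ± 0.11 (SD, n = 2 arrays; limma adjusted p = 0.919). The 95% interval of the log2 ratio ran from -0.59, a level 1.51-fold lower in differentiated cells, to 0.55, a higher level. The interval thus held differences in either direction. The authors' processed intensity stayed between 8537 and 9227 in all 4 samples. Centred on spikes, miR-27b was the one member called, with a log2 ratio of 1.21 (limma adjusted p = 0.00309). With that centring 68% of tested probes were called higher and 4.65% lower. All members had the same standard error of 0.38 in that fit, so a probe's own spread had no weight.

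**Figure D2:**
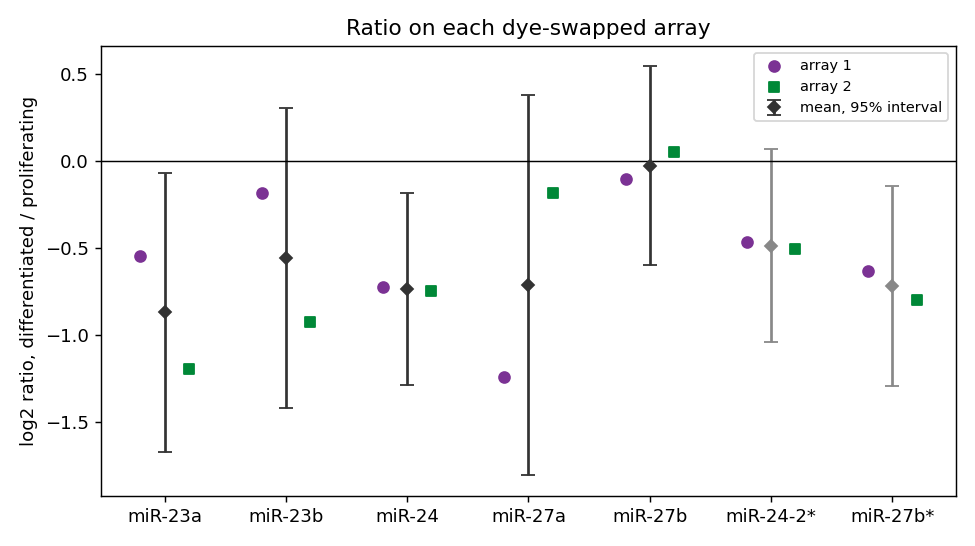
Log2 ratio of differentiated over proliferating for the 5 guides and the 2 tested passenger strands, with a purple circle for array 1, a green square for array 2, and a diamond with a 95% interval for the mean. The intervals of miR-23a, miR-24 and miR-27b* leave out 0 before adjustment, the arrays are far apart for miR-27a, and with spike centring every mean shown lies above 0.

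The b paralog had a higher log2 ratio than the a paralog in both pairs and on both arrays. For miR-23a minus miR-23b the difference between log2 ratios was -0.36 on array 1 and -0.27 on array 2, a mean of -0.31 ± 0.06 (SD, n = 2 arrays). For miR-27a minus miR-27b it was -1.14 and -0.23, a mean of -0.69 ± 0.64. The miR-23 difference was thus small and close on both arrays, and the miR-27 difference rested mainly on array 1. No test of either difference was run, and an exact test over 2 arrays cannot go below 0.5. A shift of all ratios cancels in such a difference, so centring on spikes cannot alter it. From the authors' value table the differences were -0.33 and -0.28 for the miR-23 pair and -1.07 and -0.25 for the miR-27 pair.

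As a yardstick, 15 pairs of tested probes had targets of equal length that differed by 1 base. Their differences between log2 ratios had a median size of 0.26, from 0.03 to 1.66, and 12 pairs kept 1 sign on both arrays. miR-27a and miR-27b ranked 3 by size and miR-23a and miR-23b ranked 7. The miR-23 difference thus lay near the median size of such pairs, and the miR-27 difference above it. The yardstick is rough, since the 15 pairs include both family pairs and reuse probes such as let-7a. The pairs ranked 1 and 2 set a bright probe against a dim one. Mean proliferating log2 levels were 12.33 for miR-1937b and 7.18 for miR-1937c, and 13.50 for miR-29a and 6.66 for miR-29c.

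**Figure D3:**
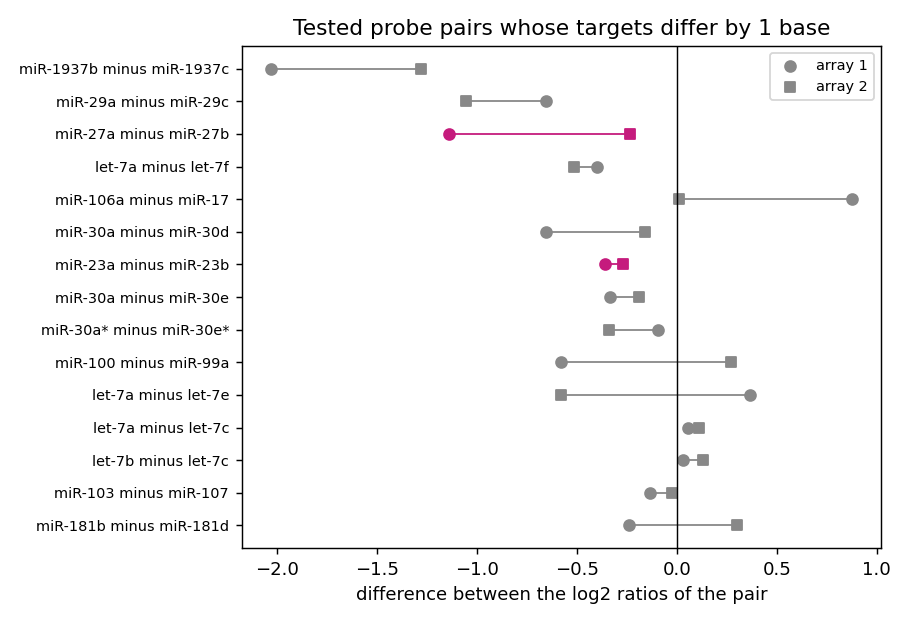
Difference between the log2 ratios (differentiated over proliferating) of each of the 15 tested probe pairs that differ by 1 base, with circles for array 1, squares for array 2, and the miR-23 and miR-27 pairs in magenta. The miR-27 pair spans -1.14 to -0.23 and the miR-23 pair -0.36 to -0.27, both on the negative side.

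Unlike the miR-24 guide, each passenger target with a probe was found in a single hairpin. The targets of miR-24-1* and miR-24-2* are 2 edits apart, and signal shared between passenger probes was not tested. Of the 6 passenger strands of the hairpins, 4 had a probe, and 2 of these, miR-24-2* from the chromosome 8 cluster and miR-27b* from the chromosome 13 cluster, were detected. Their targets are printed with the seed in capitals, beside the paralogous passengers that were not detected in any sample.
miR-24-2*: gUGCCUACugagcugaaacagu
miR-24-1*: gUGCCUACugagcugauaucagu
miR-27b*: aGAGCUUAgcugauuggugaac
miR-27a*: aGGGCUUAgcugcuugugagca
For the undetected miR-27a* and miR-24-1* only a bound exists at both stages, so no ratio is given. Neither detected passenger passed the test.

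miR-27b* had log2 levels of 7.85 and 7.64 in the proliferating samples and of 7.22 and 6.84 in the differentiated samples. Both differentiated samples were below both proliferating ones. Its log2 ratio was -0.72 ± 0.12 (SD, n = 2 arrays; limma adjusted p = 0.0762). In differentiated 2 its signal over background was 158, just above that sample's margin of 157, and 3 of 5 spots passed. The offset added to each signal understates ratios of probes this dim. In the authors' value table the processed intensity went from 182 to 71.2 on array 1 and from 157 to 46.2 on array 2, and the test on that table called it lower (log2 ratio -1.56, limma adjusted p = 0.000116). The log2 ratio of miR-27b* minus that of its guide miR-27b was -0.53 on array 1 and -0.85 on array 2, and -1.27 and -1.87 by the authors' value table, with no test of this difference.

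miR-24-2* had log2 levels of 7.70 and 8.05 in the proliferating samples and of 7.24 and 7.54 in the differentiated samples. The groups did not overlap. The log2 ratio was -0.48 ± 0.03 (SD, n = 2 arrays; limma adjusted p = 0.138). The authors' value table gave -1.23 (limma adjusted p = 0.00252). The log2 ratio of miR-24-2* minus that of miR-24 was 0.26 on array 1 and 0.24 on array 2, opposite in sign to the miR-27b pair. By the authors' value table it was -0.24 and -0.69. miR-24-2* also lay below miR-24 with plain subtraction (-0.88 against -0.66), quantile normalization (-0.60 against -0.33) and both median centrings. It lay above miR-24 in the remaining alternatives, narrowly with offset 16 (-0.61 against -0.69). The sign of this difference thus depended on the processing, and it was not tested either. Centred on spikes, miR-27b* was at 0.52 and miR-24-2* at 0.75, neither called. miR-128, whose first bases hold the miR-27 seed letters shifted by 1 base, was the only one of 7 listed seed relatives with a probe, and its log2 ratio was -0.04 (limma adjusted p = 0.87).

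By the authors' value table, 4 of 5 members were below 0 on both arrays, beside 47.1% of tested probes, and the members' median was -0.67. miR-23a was the only member called there, where 32.6% of tested probes were called lower and 27.9% higher. The members and the detected passengers shared 1 standard error (0.37) in that fit, so calls did not weigh each probe's own spread. The other members had log2 ratios of -0.67 for miR-23b, -0.76 for miR-24, -0.65 for miR-27a and 0.01 for miR-27b. These values come from the authors' own processing, and its background step, scale and centring stay unknown.

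The direction of the 4 lower-reading members rested on how each array was balanced. Without the intensity-dependent loess step, and with ratios centred on the median of all miRNA probes, the log2 ratios were 0.01 for miR-23a, 0.33 for miR-23b, 0.12 for miR-24, 0.07 for miR-27a and 0.77 for miR-27b. The median of the tested probes was 0.53 in that setting. Relative to the median of the tested probes, miR-23a, miR-24 and miR-27a were below in each of the 10 alternatives that can move this value, with log2 differences of -0.97 to -0.37, -0.92 to -0.41 and -1.02 to -0.45. miR-23b was below in 9 of 10 and miR-27b in 6 of 10. Alternatives that shift all ratios alike or alter only the error model leave the value as it is, and are not counted. The setting with no filter is not counted either. Detection in all 4 samples is counted, although it left the members' ratios as they were. It moved the tested median to -0.06, with miR-27b 0.04 above it. This comparison with the tested median was chosen after seeing the data, and it says nothing on the absolute amount per cell. The a paralog's ratio was below the b paralog's in each of the 9 alternatives that can move their difference, with miR-23a minus miR-23b from -0.46 to -0.31 and miR-27a minus miR-27b from -0.70 to -0.66.

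**Figure D4:**
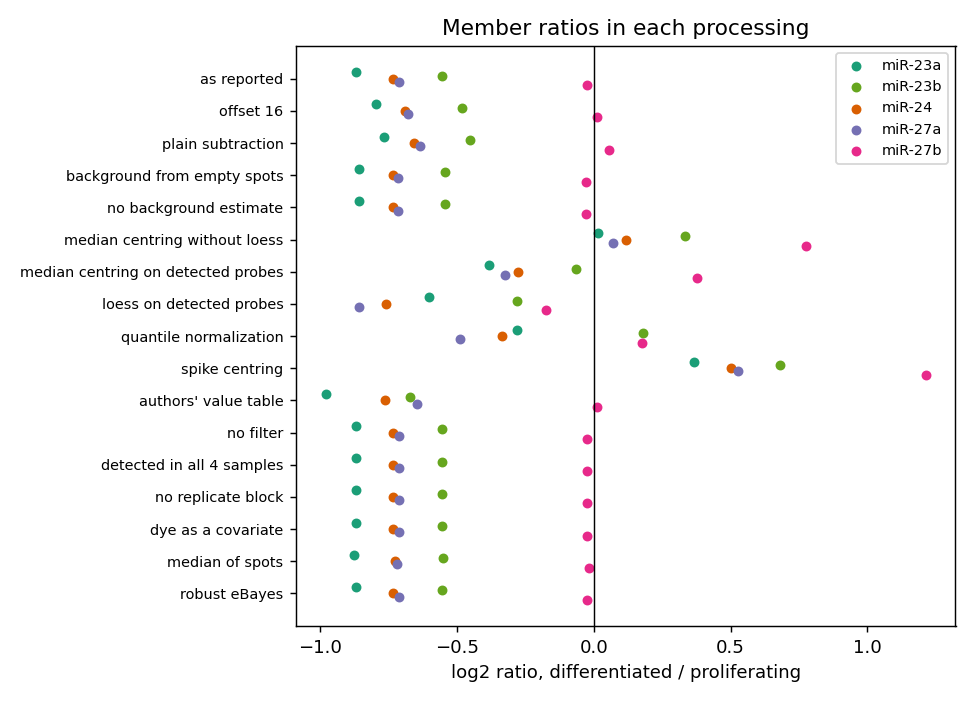
Log2 ratio of differentiated over proliferating for each guide (colours) as reported and in each alternative processing (rows). As reported, miR-27b lies at -0.02 and the other guides from -0.87 to -0.55, and all 5 lie right of 0 with spike centring and with median centring without loess, while the order of a and b within each pair is kept.

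The ratio profiles over the 2 arrays were compared by Euclidean distance. miR-24 lay nearest to miR-27b*, a passenger strand of the same clusters, at a distance of 0.10, and then to miR-674* (0.25). Nearest to miR-23a were miR-1946a (0.26) and miR-2142 (0.29), to miR-23b miR-709 (0.11) and miR-106b* (0.20), and to miR-27a miR-877 (0.14) and miR-484 (0.23). miR-27b lay nearest to miR-1937c (0.04) and miR-872 (0.05), all with ratios near 0. Within the family miR-23a and miR-23b were closest to each other, at 0.45, while miR-27a and miR-27b were 1.16 apart. Among these neighbours miR-2142 (15.55), miR-709 (15.56) and miR-484 (10.11) were the brighter ones by mean proliferating log2 level. The others were dim, from 6.93 (miR-872) to 7.75 (miR-27b*), and the offset understates ratios of dim probes. In the authors' value table the log2 ratio was -1.56 for miR-27b* against -0.76 for miR-24. For miR-1946a it was -2.28 against -0.98 for miR-23a, and for miR-709 -0.76 against -0.67 for miR-23b. With 2 arrays such distances describe these samples only.

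**Figure D5:**
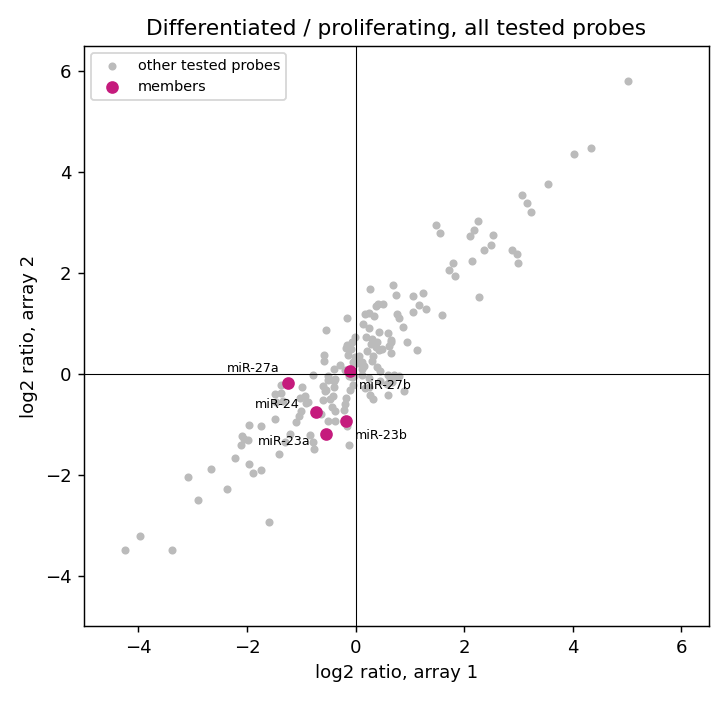
Log2 ratio of differentiated over proliferating on array 1 against array 2 for the 172 tested probes, with the 5 members in magenta and the others in grey. Of the members 4 lie below 0 on both arrays (40.1% of tested probes do) when ratios are set relative to the miRNA probes, while all 5 means lie above 0 when centred on spikes.

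Single samples detected between 138 and 203 of the 700 probes. Of 7 epithelial markers 6 were detected in some sample and 3 of 6 tested were called higher (16.9% of all tested probes were), with summed levels of 7038 to 8879 in proliferating and 21110 to 22827 in differentiated samples. No endothelial marker and 1 of 7 blood markers was detected, and in the fibroblast and mesenchyme list 4 of 7 probes were detected, with 1 of 4 tested called higher. Summed levels of that list were 20092 to 27562 in proliferating and 18037 to 21065 in differentiated samples. It holds the bright miR-140*, with a mean proliferating log2 level of 14.43. Of 4 muscle markers only miR-206 was detected, and it was called lower (log2 ratio -1.02, limma adjusted p = 0.0483). Their part in the results on the family was not tested.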

How the data were processed

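MicroRNA was measured in 4 samples, 2 per stage, on 2-colour arrays run by LC Sciences, per the labels' protocols. The deposited scanner tables hold the mean intensity of each of 3968 spots in 1 dye, per the file headers. Empty spots lie above 0 in each table, so background was taken as still present. The authors also deposited a table of processed intensity per probe; no source used here says how it was made.

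The local background was the 20th percentile of spots within 7 rows and columns. A probe was detected with at least 3 of 5 background-subtracted spots above the mean of the empty spots, treated alike, plus 3 of their SDs. Background was corrected with normexp (offset 50), ratios were normalized by loess (span 0.3, controls at weight 0), and spots were averaged. Levels were taken after Aquantile. Probes detected in both samples of a stage (172) were tested with limma 3.58.1 under R 4.3.3 on the ratio per array, two-sided, with Benjamini-Hochberg adjustment at 0.05 and 1 residual and 2.08 prior degrees of freedom. An exact test of 2 against 2 samples cannot go below 0.333.

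Same-numbered samples were taken as 1 array, from the opposite dyes and the dye-swap design. Their deviations from the stage means had a correlation of 0.34 over probes, which with 2 samples a stage has to be equal for both numbers. The levels behind it were normalized within the assumed arrays and no other pairing was run, so it cannot decide the pairing. Scripts were tested on simulated data. The members and lists were chosen with earlier results of these data known. All 5 members were named, with the 2 nearest probes of each by distance over both arrays. The unit of epidermal growth factor conflicts between labels and is not used.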

Additional observations from a re-analysis of the deposited data

How the results depend on the processing

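As reported, 29 tested probes were called higher and 23 lower, and 0 of 5 members were called. The counts were 46 and 43 (offset 16), 48 and 37 (plain subtraction), 54 and 41 (loess fitted to detected probes), 54 and 45 (quantiles), 48 and 56 (the authors' values), 47 and 13 (median centring without loess) and 117 and 8 (spikes). With no filter 13 were lower, and 18 were higher among probes detected in all 4 samples. These filters change how many probes are tested. The members shared 1 standard error with offset 16 (0.34), loess on detected probes (0.27), quantiles (0.25) and the authors' values (0.37). They also did with median centring without loess (0.48) and spikes (0.38). A probe's own spread had no weight in those fits. Outside the filters, the cause of the changed counts was not tested. miR-23a was called lower with offset 16 (-0.80, adjusted p = 0.0365), loess on detected probes (-0.60), the median of spots (-0.88) and the authors' table (-0.98), over limma adjusted p-values from 0.0166 to 0.982 across its alternatives. With no filter miR-24 was called lower at its reported ratio (-0.73), and only its standard error differed, 0.047 against 0.18 as reported. miR-24 was also called lower with loess on detected probes (-0.76), and so was miR-27a (-0.86). That loess fit gave each member the same standard error. The spread of miR-27a between arrays (SD 0.75 as reported) thus had no weight in its call. Signs turned with median centring without loess, to 0.014 for miR-23a, 0.33 for miR-23b, 0.12 for miR-24, 0.072 for miR-27a and 0.77 for miR-27b. They turned with spike centring, to 0.37, 0.68, 0.50, 0.53 and 1.21, and to 0.75 for miR-24-2* and 0.52 for miR-27b*. miR-23b was also above 0 with quantile normalization (0.18). miR-27b, near 0 as reported, was above 0 with offset 16 (0.011), plain subtraction (0.055), the authors' table (0.010), quantile normalization (0.18) and median centring on detected probes (0.38). That last setting, and every alternative for the passenger strands, was added after seeing the data. miR-27b* was called lower with plain subtraction (-1.31), the authors' table (-1.56), quantile normalization (-0.75) and offset 16 (-0.93), and miR-24-2* with the authors' table (-1.23) and quantile normalization (-0.60). The members' median was -0.71 as reported, 0.12 with median centring without loess, -0.28 with median centring on detected probes, -0.28 with quantile normalization, and 0.53 with spike centring. miR-23a minus miR-23b was -0.46 with quantile normalization.

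With no replicate block 32 were higher and 27 lower and miR-23a had an adjusted p of 0.0509; no member's call changed. Leaving single samples out of that fit, which assumes that the remaining sample of a stage varies as the other stage does, called 26 to 40 higher and 21 to 32 lower. Log2 ratios ran from -1.05 to -0.68 for miR-23a, -0.77 to -0.34 for miR-23b, -0.94 to -0.53 for miR-24, -1.05 to -0.37 for miR-27a and -0.08 to 0.03 for miR-27b. miR-23a was called without differentiated replicate 1 (adjusted p = 0.0429). The members' median ran from -0.77 to -0.53. Single arrays, without a test, gave -1.19 to -0.54 for miR-23a, -0.93 to -0.18 for miR-23b, -0.75 to -0.72 for miR-24, -1.24 to -0.18 for miR-27a, -0.10 to 0.052 for miR-27b and -0.75 to -0.54 for the median. The paralog differences over samples and arrays ran from -0.36 to -0.27 for the miR-23 pair and from -1.14 to -0.23 for the miR-27 pair. All 5 members were detected in all 4 samples under each detection rule run. The small number of arrays limits every value, and the dim passenger strands are further limited by the offset.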
